A study of Mus musculus with 8 samples.

Results

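Small nucleolar RNAs and small Cajal body RNAs were followed on 8 Affymetrix arrays of CD4+ T cells from a mouse model of colitis. A member is a gene whose probe set carries exactly 1 gene symbol in the platform annotation, where that symbol starts with Snord (box C/D), Snora (box H/ACA) or Scarna (Cajal body). For each symbol the probe set with the highest mean level over the 8 arrays was kept, so each member's probe set was chosen by its level, and levels are given as a description. This gave 78 members of 22180 genes with 1 symbol: 47 box C/D, 26 box H/ACA and 5 Cajal body RNAs. A further 46 probe sets named such a gene together with another gene and are not members.

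The cells were CD4+CD62L+ T cells of the C57BL/6 strain, for which the labels give no age. Wt cells carried CD45.1 and Irak1-/- cells CD45.2, and equal numbers of both went into the same Rag1-/- mice, which have no T or B cells of their own, by intraperitoneal injection. After 14 days CD3+ CD4+ cells of each form were sorted from the mesenteric lymph nodes to a purity above 99.5%. Cells of 2 recipients were pooled in each of 4 experiments, whose 2 arrays, 1 per genotype, are called a pair here. The genotype and the CD45 form always went together, so their effects cannot be told apart. The labels do not say whether the 4 experiments used separate donor animals, so p-values measure the spread between these experiments.

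Small nucleolar RNAs work as guides inside protein particles. Box C/D RNAs pair with ribosomal RNA and direct the methylation of ribose, carried out by fibrillarin. Box H/ACA RNAs direct the conversion of uridine to pseudouridine by dyskerin, and a few members of both classes are needed to cut the rRNA precursor. Cajal body RNAs guide the same changes in the RNAs of the spliceosome. Most of these RNAs in mammals are cut from introns of host genes, many of which code for ribosomal proteins or are noncoding Snhg genes, while a few are transcribed from promoters of their own. In T cells that grow and divide, ribosome production is high and these RNAs are abundant.

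In the RefSeq gene table, 74 of the 78 members lay inside the span of another gene, and these spans belonged to 60 host genes. The table has no strand column, so the host is the gene with the smallest span that holds the member. The 4 members without such a gene were Snord13, Snord118, Snord89 and Scarna2. Of the hosts, 46 had a promoter window of 300 bases in the RefSeq table of GRCm38.p6. Windows of 3 hosts that carry several members are shown. Members of the same host share its annotated start, and whether they differ from each other was not tested. Each window is read 5′ to 3′ on the strand of the gene, from 100 bases before to 20 after the start. Capitals mark the longest unbroken run of at least 6 letters C or T within 10 bases of the start, the kind of run that starts many host transcripts.
Snhg12, host of Snora44, Snord99, Snora16a and Snora61 (chr4:132308578-132308697, plus strand): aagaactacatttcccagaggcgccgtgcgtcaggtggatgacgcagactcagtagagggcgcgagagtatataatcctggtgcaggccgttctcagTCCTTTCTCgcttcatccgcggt
2410006H16Rik, host of Snord49a, Snord49b and Snord65 (chr11:62602777-62602896, plus strand): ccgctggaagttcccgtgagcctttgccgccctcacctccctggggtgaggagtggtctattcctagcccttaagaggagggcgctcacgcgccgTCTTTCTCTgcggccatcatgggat
Rps3a1, host of Snord73a and Snord73b (chr3:86142649-86142768, minus strand): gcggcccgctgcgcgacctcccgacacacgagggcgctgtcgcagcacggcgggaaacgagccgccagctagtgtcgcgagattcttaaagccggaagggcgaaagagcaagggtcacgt
The run had 9 letters in Snhg12 and in 2410006H16Rik, and no run of this length was found at the annotated start of Rps3a1. Such a run was present in 21 of the 46 host windows (45.7%) and in 9847 of the 32851 windows in the table (30.0%). The letters CACGTG, the site that MYC and related factors can bind, which read alike on both strands, stood in 11 of the 46 host windows (23.9%) and in 7.15% of all windows, and in none of the 300-base windows of the 3 hosts shown. A match of letters is a description and no sign of binding.

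Levels spanned a wide range. The mean level over 8 arrays ran from 2.19 for Snord91a to 11.06 for Snord13 on the deposited log2 scale, and 65 of the 78 members lay above the median gene. The median level was 6.13 in box C/D, 6.41 in box H/ACA and 6.74 in Cajal body RNAs, against 4.36 over all genes and 3.14 over 483 microRNA genes on the same arrays. Probe sets differ in their probes, so the order of members by level also holds differences between probes. A probe set inside an intron may read the small RNA, the intron of the host precursor or both, which these values cannot tell apart.

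**Figure D1:**
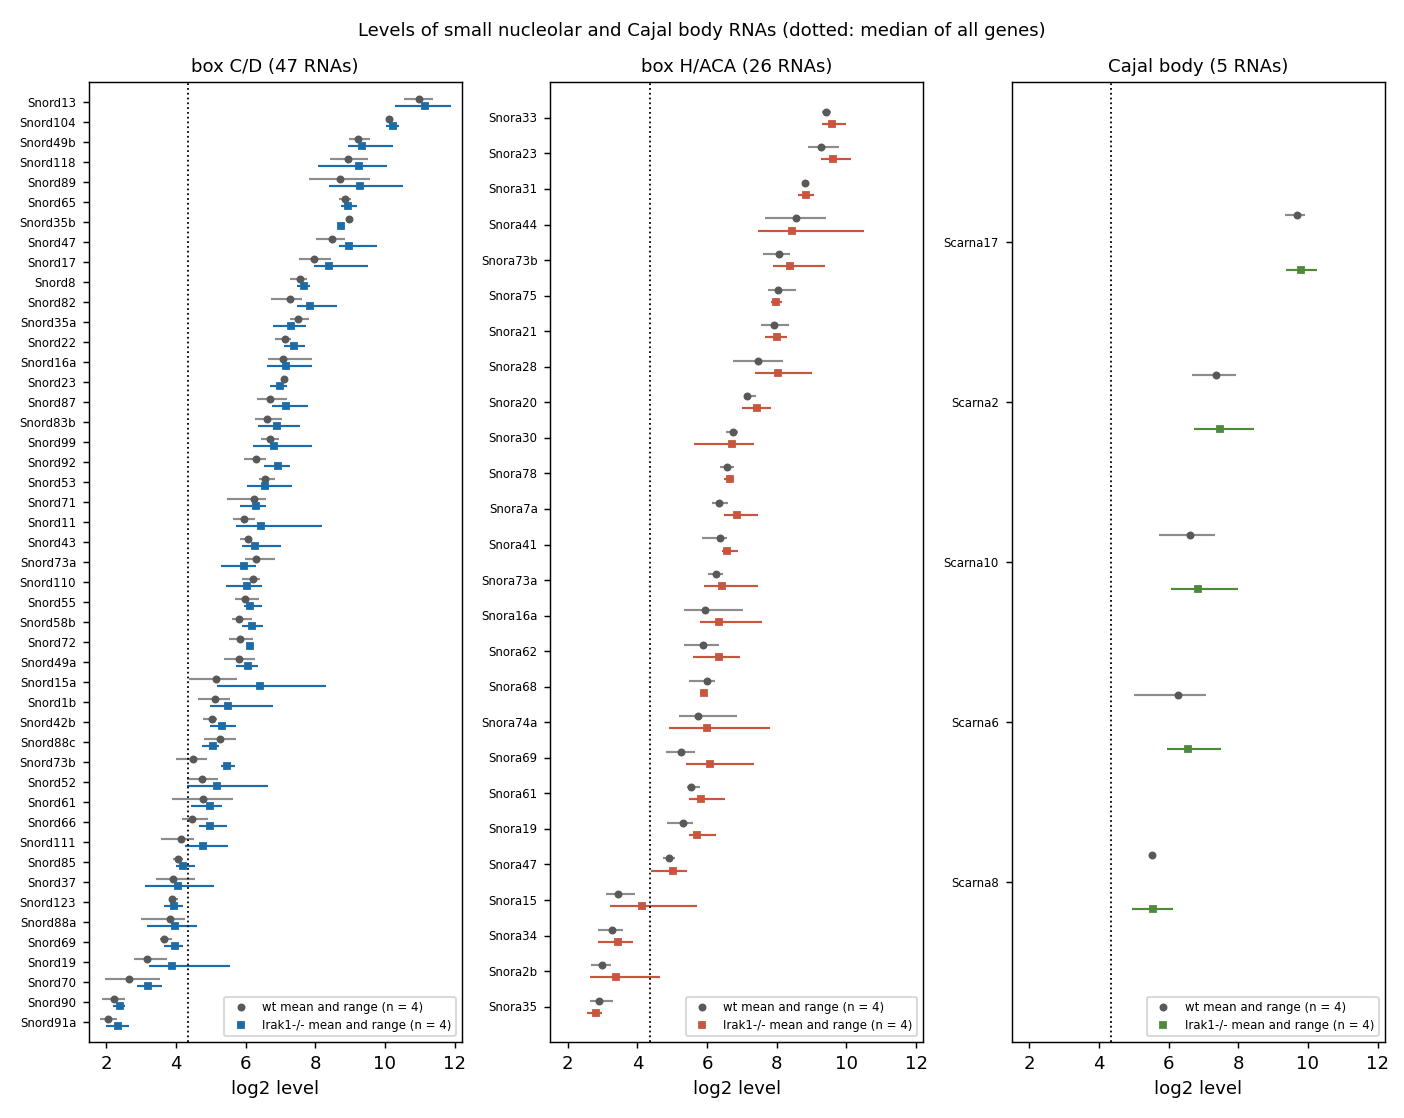
Mean log2 level (point) and range (line) of each of the 78 members in the 4 wt arrays (grey) and the 4 Irak1-/- arrays (coloured), by class, with the median of all genes as a dotted line. The ranges of the groups overlap for all members but Snord73b and Snord35b. Groups stood apart for 2 of the 78 members and for 642 of 22180 genes, a similar share.

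The RNAs needed to process the rRNA precursor spread over a wide range of levels. Snord13, which acts in the maturation of the small-subunit rRNA and has its own promoter, read 10.55, 10.74, 11.38 and 11.25 in wt arrays 1 to 4 and 10.30, 11.00, 11.88 and 11.40 in Irak1-/- arrays 1 to 4. In each genotype the array of pair 1 was the lowest and that of pair 3 the highest, and the groups overlapped. Snord118, known as U8, which is required for the large-subunit rRNAs, had a mean level of 8.95 ± 0.469 (SD, n = 4) on wt and of 9.26 ± 0.858 on Irak1-/- arrays. Snora73b and Snora73a, the U17 RNAs cut from Snhg3 and close copies of each other, had overall means of 8.23 and 6.34. Their separate levels are uncertain where probes match both. Snord22, known as U22 and cut from Snhg1, had 7.12 ± 0.194 on wt and 7.39 ± 0.259 on Irak1-/- arrays.

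Guides of rRNA changes filled most other places at the top. Snord104 had an overall mean of 10.16, Snora33, from Rps12, 9.51, Snora23, from Ipo7, 9.45, and Snord49b 9.28. Snora31, from Tpt1, had 8.82, and its 4 wt arrays lay between 8.75 and 8.86. Of the Cajal body RNAs, Scarna17 was highest at 9.74, followed by Scarna2 at 7.43, Scarna10 at 6.74, Scarna6 at 6.41 and Scarna8 at 5.54. At the lower end stood 9 members whose mean was under the level that the test across genes required, which was the 40th percentile of all genes. Snord88a lay just inside that level with a mean of 3.91 and Snord69 just outside with 3.81.

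The members varied from array to array more than most genes did. The median SD among the 4 wt arrays was 0.339 over all members, 0.180 over all genes, 0.258 over microRNA genes and 0.0971 over the 46 host genes with a level. Among the Irak1-/- arrays the median SD of the members was 0.452, and 0.258 without the array of pair 3. For each gene the mean over its 8 arrays was taken away and the median of the remainder was formed over a class. For all members this median deviation was -0.27, -0.15, 0.08 and -0.14 in wt arrays 1 to 4 and -0.10, -0.08, 0.61 and 0.05 in Irak1-/- arrays 1 to 4. The Irak1-/- array of pair 3 was thus the high one, while the same median over all genes stayed between -0.02 and 0.03. That array held the highest of the 8 values for 51 of the 78 members, against 19.5% of all genes. The wt array of pair 3 held the highest of the 4 wt values for 45 members, against 22.5% of all genes.

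**Figure D2:**
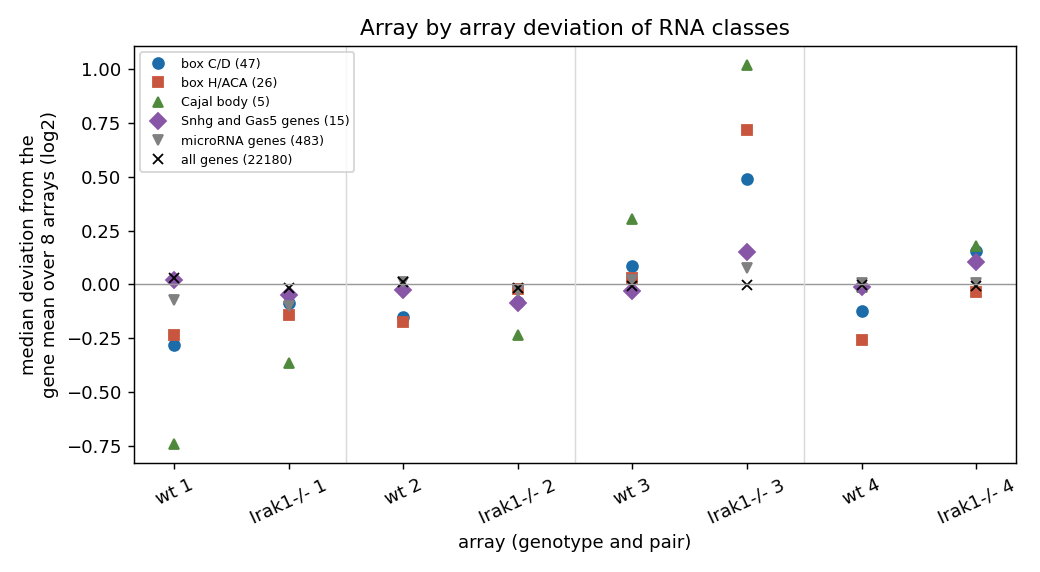
Median deviation from the gene mean over 8 arrays (log2) on each array. It is given for the 3 member classes, the Snhg genes, the microRNA genes and all genes. The set labelled Snhg and Gas5 holds 15 Snhg genes, as Gas5 had no probe set with 1 symbol. Box C/D, box H/ACA and Cajal body RNAs reached 0.49, 0.72 and 1.02 on the Irak1-/- array of pair 3. On that array the Snhg genes had 0.15 and microRNA genes 0.08.

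All 3 classes had their highest median deviation on 1 array. All were below 0 on both arrays of pairs 1 and 2 and on the wt array of pair 4. On the Irak1-/- array of pair 3 the median deviation was 0.49 in box C/D, 0.72 in box H/ACA and 1.02 in Cajal body RNAs, the last over 5 RNAs only. On the wt array of pair 1 it was -0.28, -0.24 and -0.74, while box H/ACA was lowest on the wt array of pair 4, at -0.26. The Irak1-/- array of pair 3 also stood apart over all genes, with 37.6 on the first principal component where the other 7 arrays lay between -12.9 and 4.05. Its T cell markers were present, since the mean of the 6 measured markers lay between 9.98 and 10.24 on all 8 arrays. Their median deviation was lowest on that array, at -0.21, and their median difference in pair 3 was -0.16. In that pair the cell cycle genes had a median difference of -0.49 and the myeloid markers one of 0.73. The part of these in the levels of the small RNAs was not tested.

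The main comparison asks how the small RNAs of Irak1-/- cells differ from those of wt cells kept in the same recipients. The kinase IRAK1 acts downstream of Toll-like and interleukin-1 receptors. The Irak1 probe set had 6.77 ± 0.332 (SD, n = 4) in wt, 6.84 ± 0.167 (SD, n = 4) in Irak1-/- and thus no lower level in Irak1-/-. The labels do not give the deleted part of the gene, so this is no check of the genotype. No member passed the test. Of 69 members tested by limma with the pair as a block, 0 were higher (0.0676% of the 13308 genes tested were) and 0 lower (0.00751%) at an adjusted p under 0.05. At an unadjusted p under 0.05 there were 18 higher (2.88% of genes tested) and 0 lower (3.82%). With all 78 members in a fit without the level filter, 0 passed (0.0406% of all genes did), and the unadjusted counts were 18 higher (2.69% of all genes) and 0 lower (3.27%).

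Most members had positive differences, Irak1-/- minus wt. The median difference over the 78 members was 0.22 on the log2 scale, against -0.02 over all genes, and 67 members had a mean difference above 0 (44.3% of all genes did). All 4 pairs were positive for 19 members (5.5% of all genes) and negative for 1 member (7.93%). The pairs contributed unequally. The median over members was 0.10 in pair 1, 0.04 in pair 2, 0.52 in pair 3 and 0.22 in pair 4, and the members with a positive difference numbered 53, 45, 65 and 57. Without pair 3 the median difference was 0.13, 57 members had a positive mean (44.0% of all genes), and 24 were positive (10.5%) and 5 negative (16.0%) in all 3 remaining pairs. A fit with neither the block nor the Irak1-/- array of pair 3 gave a median of 0.07. Members share arrays and move together on them, so these counts describe 4 pairs and are not separate pieces of evidence.

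**Figure D3:**
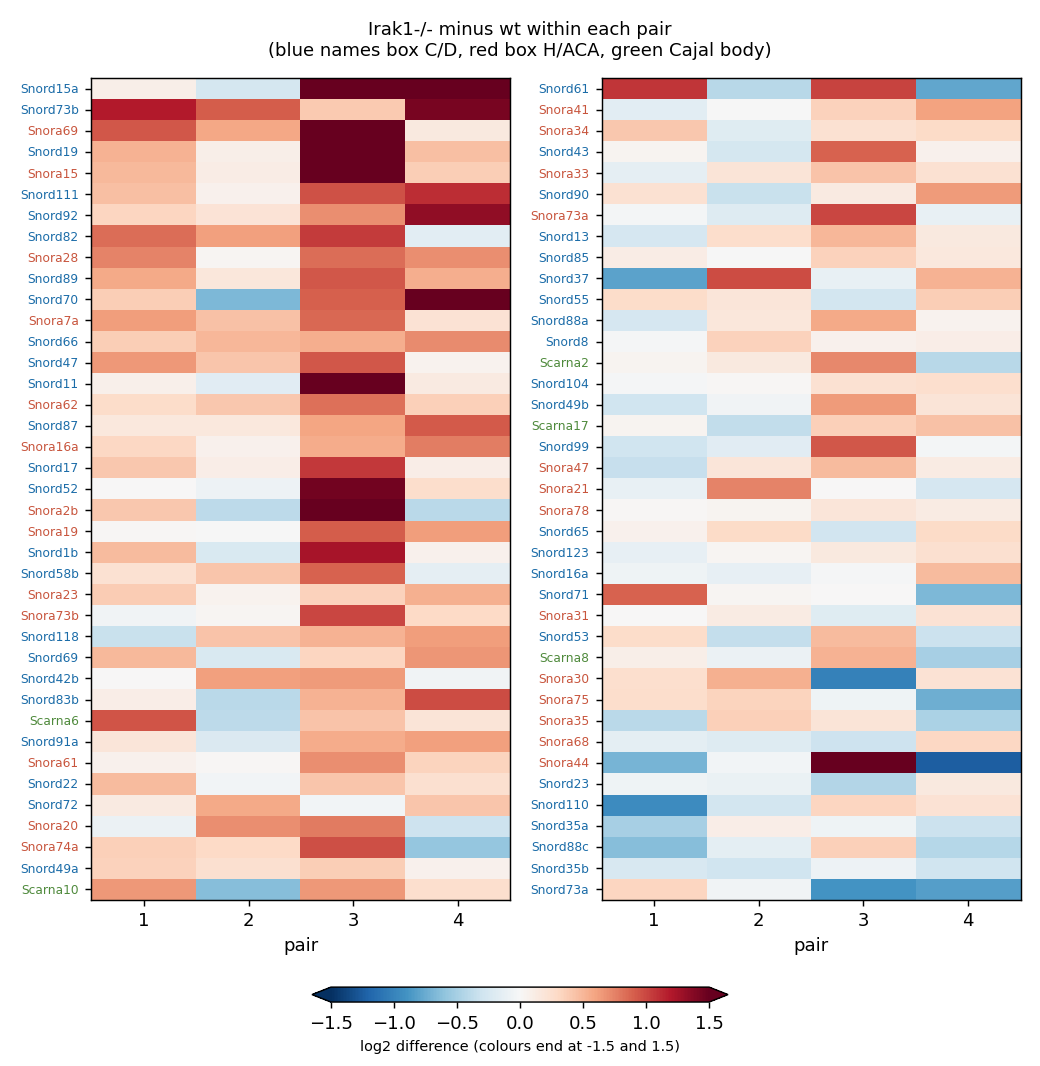
Irak1-/- minus wt (log2) in each of the 4 pairs for all 78 members, ordered by their mean difference from high (upper left) to low (lower right). Red marks a higher level in Irak1-/-, which held for 65 members in pair 3 and for 45 in pair 2.

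The medians of box C/D and box H/ACA RNAs lay close together. The median was 0.25 over 47 box C/D RNAs and 0.23 over 26 box H/ACA RNAs, a gap of 0.03 between the classes. In pairs 1 to 4 the box C/D medians were 0.14, 0.03, 0.52 and 0.22 and the box H/ACA medians 0.04, 0.09, 0.62 and 0.22, so neither class was the higher one in every pair. Without pair 3 the medians were 0.18 and 0.12. A difference above 0 was found for 41 box C/D and 21 box H/ACA RNAs. The 5 Cajal body RNAs had a median of 0.12, with 0.09, -0.37, 0.52 and 0.19 in the pairs and 0.04 without pair 3. With neither the block nor the Irak1-/- array of pair 3 their median was -0.15. Their single values were 0.29 for Scarna6, 0.23 for Scarna10, 0.12 for Scarna2, 0.11 for Scarna17 and 0.01 for Scarna8, none of which passed (limma adjusted p between 0.867 and 0.995).

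Snord73b had the smallest p of the members. This box C/D guide of large-subunit rRNA lies in Rps3a1, the gene of a small-subunit ribosomal protein. It read 4.21, 4.79, 4.90 and 4.00 in wt arrays 1 to 4 and 5.40, 5.69, 5.30 and 5.42 in Irak1-/- arrays 1 to 4. Every Irak1-/- array lay above every wt array (1.19% of all genes separate in this direction), and the spread was in the wt group. The log2 difference was 0.98 (SE 0.165, 95% confidence interval 0.60 to 1.35), which did not pass over all genes (limma adjusted p = 0.125). Without pair 3 it was 1.17 and passed (limma adjusted p = 0.0332), the only call among the 67 members tested in that fit (0.0751% of genes tested were called higher). At an unadjusted p under 0.05 that fit had 16 members higher (2.74%) and 3 lower (3.99%). Snord73a, from the same host, had the most negative mean difference of all members. It read 5.99, 6.22, 6.18 and 6.85 in wt and 6.31, 6.17, 5.29 and 6.02 in Irak1-/- arrays, which overlap, with a log2 difference of -0.36 (SE 0.202, limma adjusted p = 0.815). It was chosen after its value was seen. The host Rps3a1 had a level of 11.02 ± 0.224 (SD, n = 4) in wt cells and of 11.13 ± 0.176 in Irak1-/- cells, a difference of 0.11.

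Snord35b was the 1 member lower in all 4 pairs. It read 8.93, 9.003, 8.94 and 9.02 in wt and 8.69, 8.70, 8.87 and 8.73 in Irak1-/- arrays. The groups did not overlap (1.7% of all genes separate with Irak1-/- lower), but the log2 difference of -0.23 (SE 0.106) did not pass (limma adjusted p = 0.778). The difference was -0.08 in pair 3 and -0.28 without that pair (limma adjusted p = 0.727). Snord35a, from Rpl13a, had -0.20, with negative values in 3 of 4 pairs (limma adjusted p = 0.867). Both ran against the direction of most members.

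Of the members higher in all 4 pairs, the 8 with the smallest p were Snord73b, Snord66, Snora7a, Snord89, Snora28, Snora69, Snora62 and Snord111. Apart from Snord73b, their groups overlapped, because pairs differed in level by as much as the genotypes did. Snord89 shows this. It read 7.83, 8.63, 9.58 and 8.85 in wt and 8.40, 8.80, 10.51 and 9.40 in Irak1-/- arrays, so that pair 1 was low and pair 3 high in both genotypes, with Irak1-/- above wt in each. Its log2 difference was 0.56 (SE 0.137, limma adjusted p = 0.404), and 0.43 without pair 3. Snord66, from the translation factor gene Eif4g1, had 0.53 with 0.36, 0.50, 0.54 and 0.71 in the pairs. Snora7a, from Rpl32, had 0.54, Snora28, from Eif5, 0.58, Snora62, from Rpsa, 0.46 and Snord111, from Sf3b3, 0.64. Snora69, from Rpl39, had 0.83, with 1.68 in pair 3 and 0.55 without that pair. For these 6 the limma adjusted p lay between 0.260 and 0.450.

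**Figure D4:**
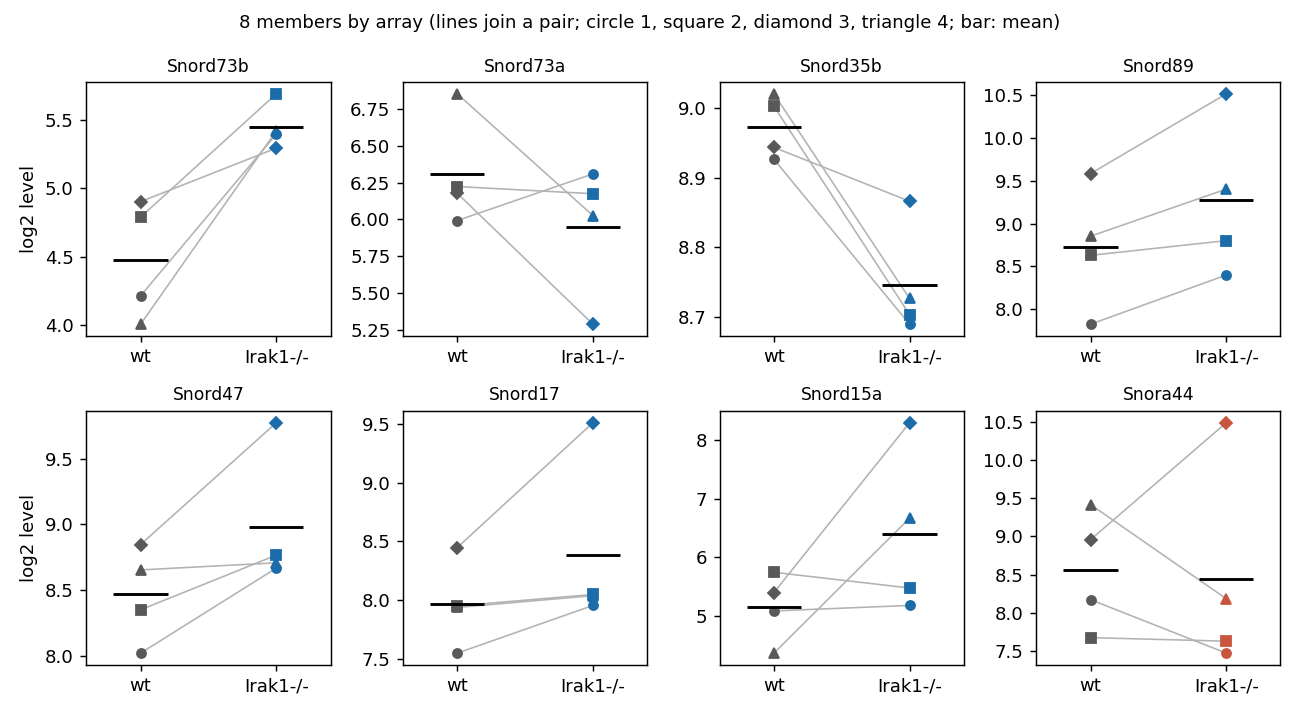
Log2 level of 8 members on each array, with lines joining the wt and Irak1-/- arrays of a pair and bars for the group means (n = 4). Each panel has its own scale. Snord73b and Snord35b are the members whose groups do not overlap (2 of 78 members, beside 642 of 22180 genes). The diamond of pair 3 is the highest Irak1-/- point for Snord35b, Snord89, Snord47, Snord17, Snord15a and Snora44.

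The processing RNAs did not pass either. The log2 difference was 0.31 for Snord118 (limma adjusted p = 0.812), 0.32 for Snora73b (0.812), 0.28 for Snord22 (0.756), 0.17 for Snora73a (0.938) and 0.16 for Snord13 (0.907). Without pair 3 that of Snora73a was -0.11, that of Snora73b 0.09 and that of Snord13 0.05. That of Snord22 was 0.23 and that of Snord118 0.24 without pair 3. With neither the block nor the Irak1-/- array of pair 3, that of Snord118 was 0.05. It was 0.53 without pair 1, the only pair in which it was negative. Snord17, a guide of large-subunit rRNA in Snx5, had 0.42 (limma adjusted p = 0.708) and 0.20 without pair 3, where its Irak1-/- array read 9.51 and the other Irak1-/- arrays 7.95 to 8.05. Snord47, from the noncoding host Gas5, had 0.51 (limma adjusted p = 0.493), with positive values in all 4 pairs.

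The most variable members were Snord15a, Snora44, Snora74a and Snord19, with SDs over the 8 arrays of 1.21, 1.05, 0.974 and 0.870. Snord15a, a guide of large-subunit rRNA in Rps3, read 5.09, 5.74, 5.40 and 4.37 in wt and 5.18, 5.48, 8.30 and 6.67 in Irak1-/- arrays. Its difference of 1.26 (SE 0.474, limma adjusted p = 0.670) came from pairs 3 and 4, with 2.90 and 2.30, while pairs 1 and 2 had 0.09 and -0.27. Snora44 read 8.17, 7.67, 8.96 and 9.42 in wt and 7.47, 7.62, 10.49 and 8.18 in Irak1-/- arrays, with 1.53 in pair 3 and -1.24 in pair 4. Snora74a had 0.96 in pair 3 and 0.02 without it. Snord19, in Gnl3, was under the level needed for testing and had 1.80 in pair 3.

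The host genes were set beside their small RNAs. Of the 60 hosts, 46 had a probe set with 1 symbol, covering 60 members. Across these 60 members the mean level of the small RNA and of its host had a Pearson correlation of 0.40 and a Spearman correlation of 0.38, and their differences between genotypes had 0.18 and 0.18. These points share arrays and, for several members, the host, and are given as a description. The median difference of the 46 hosts was 0.03, with 0.14, 0.02, -0.07 and 0.03 in the pairs, and 0 of those tested passed. Without pair 3 it was 0.07, with 37 of the 46 hosts above 0 (44.0% of all genes were), beside 0.13 for the members. In pair 3, where the members had a median of 0.52, the hosts were thus slightly below 0. Snhg12 had -0.75 in pair 3, while its members Snora44, Snord99, Snora16a and Snora61 had 1.53, 0.93, 0.55 and 0.69. Over all pairs these 4 members had -0.11, 0.11, 0.42 and 0.28, and Snhg12 had -0.10. The 15 Snhg genes with a level had a median difference of 0.03 and the 483 microRNA genes one of 0.01. Gas5 had no probe set with 1 symbol and is not among them.

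**Figure D5:**
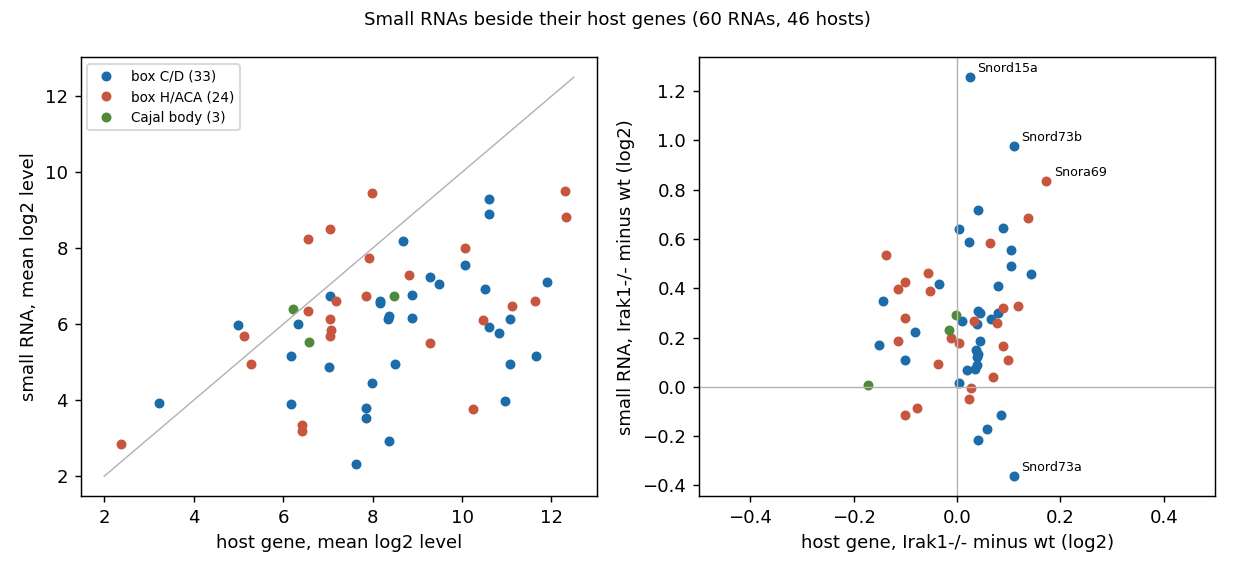
Left, mean log2 level of 60 members against that of the host gene, with the line of equality. Right, Irak1-/- minus wt (log2) of the member against that of the host, where hosts lie between -0.17 and 0.17 and members between -0.36 and 1.26.

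Members were grouped by the kind of host, with no test between the kinds. The 23 members in genes of ribosomal proteins or translation factors had a median difference of 0.27, the 13 in Snhg genes or Gas5 0.28, the 38 in other genes 0.18 and the 4 without a host 0.24. Without pair 3 these medians were 0.21, 0.09, 0.09 and 0.15. The members in Snhg genes or Gas5 had 0.93 in pair 3. All 13 were above 0 there, as were 65 of the 78 members and 49.6% of all genes.

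Proteins that build and carry these RNAs were followed as lists, with the growth regulator Myc counted among the genes. Of 34 genes, 33 had a level and were tested, 0 passed in either direction, and 0 reached an unadjusted p under 0.05 (2.88% of genes tested were higher and 3.82% lower at that p). Their median difference was -0.00. Among the box C/D core proteins, Nop58 had a log2 difference of 0.10, Nop56 0.06 and Snu13 -0.17, while fibrillarin had no probe set with 1 symbol. Without pair 3 Snu13 had 0.02. Among the box H/ACA core proteins, Nhp2 had -0.15, Dkc1, which encodes dyskerin, -0.04 and Nop10 -0.03. Without pair 3 they had 0.02, 0.19 and 0.05. Over all pairs 0 of the 4 H/ACA core proteins were above 0 (44.3% of all genes were). Without pair 3 all 4 were (44.0%), but Gar1 was close to 0 both times, with -0.0018 and 0.0027. The value of Dkc1 without pair 3 came mostly from pair 1, with 0.61, beside -0.10 and 0.05 in pairs 2 and 4. Of the 9 assembly factors, Naf1, which loads H/ACA proteins, had the smallest p, with 0.30 (limma adjusted p = 0.779), and 0.13 without pair 3. Of the U3 particle, Imp4 had -0.22, with -1.05 in pair 3 and 0.06 without it. Of the trimming and capping enzymes Exosc10, an exosome nuclease, had -0.17, and -0.12 without pair 3. Of the Cajal body and nucleolus list, Nolc1 had 0.26 (limma adjusted p = 0.812) and Npm1 0.16. Myc, a driver of ribosome production, had 0.01.

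Markers of other cells were read on the same arrays. Of 16 myeloid markers, 15 were tested and 3 passed, all higher on Irak1-/- arrays, namely Lyz2, Tyrobp and Fcer1g. The mean over the 16 lay between 4.80 and 5.03 on wt and between 5.63 and 6.23 on Irak1-/- arrays, with median differences of 0.34, 0.39, 0.73 and 0.52 in the pairs. B cell markers lay between 3.75 and 4.17 on wt and 3.84 and 3.98 on Irak1-/- arrays. The 6 NK and CD8 markers had a median difference of -0.26, and 0 passed. At an unadjusted limma p under 0.05, 3 of the 6 were lower (3.82% of genes tested) and 0 higher (2.88%). In bulk RNA, a change in the share of cells and a change in RNA per cell cannot be told apart. The part of these markers in the differences of the small RNAs was not tested.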

How the data were processed

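Biotin-labelled TRIzol RNA was hybridized to Affymetrix arrays, per the labels. The table deposited by the authors holds log2 levels, for 41345 probe sets on 8 arrays. How background and normalization were handled, and the genome build, are not stated there, so no member coordinates are printed. Array medians lay between 4.25 and 4.31, and at most 0.237% of values were identical between any arrays. The number of arrays, 4 per genotype, limits the precision.

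Of the probe sets, 23521 carried 1 symbol, 1814 several and 16010 were unnamed here. Symbols outside the members were updated by gene identifier with the GRCm38.p6 table. All 78 members were found in that table. It lacks strand, so hosts were taken without it, unlike the planned rule. For 6 members more than 1 gene spanned the site. Of the 81 member probe sets, 3 symbols had more than 1, and both of Snora19 gave the same mean of 5.51. No member belongs to the imprinted brain clusters. The C box search planned for members was not run, as 0 of the 78 had a promoter window.

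The genotype test used 1 probe set per gene in limma 3.58.1 under R 4.3.3 (lmFit, eBayes), with the pair as a block, since the cells of a pair shared recipients. Deviations from the group means correlated within pairs 1 to 4 at 0.185, 0.143, 0.200 and 0.0799 over the 13308 genes tested. Over the 78 members these correlations were 0.442, 0.176, 0.593 and 0.136. Genes under the 40th percentile of mean level were left out, which kept 13308. Tests were two-sided with Benjamini-Hochberg adjustment, and an adjusted p under 0.05 was called. Standard errors and 95% intervals are from the fit. Simulated data with 200 changed genes were used to test the scripts.

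Named members are the 5 highest of box C/D and of box H/ACA, all Cajal body RNAs, up to 8 per direction with the smallest p among those alike in all 4 pairs, an rRNA processing panel, members in Gas5, Snhg1 and Rpl13a, and the 4 with the largest SD. Others named (for their host, their place at the end of the order or the level filter) were chosen after their values were seen. The members, lists and tests were chosen with earlier results of these data known. The 14 alternatives are given in the closing section.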

Additional observations from a re-analysis of the deposited data

Results flagged for a closer look

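Groups of 4 arrays were examined by Dixon's test for the named members and for the class medians, 70 groups in all. Chance marks about 1 in 20 groups, and 5 were marked, each for the Irak1-/- array of pair 3. For Snord17 that array read 9.51 and the other 3 lay between 7.95 and 8.05. For Snord47 it read 9.78 against 8.67 to 8.77. Snord19 read 5.56 there against 3.23 to 3.47, but it was named for its large SD over the arrays, so its mark partly restates that choice and the chance rate does not apply to it. The median level of all members was 7.14 on that array and 6.17 to 6.28 on the other 3 Irak1-/- arrays. For box C/D RNAs the median level was 6.69 against 6.06 to 6.12 on the same 3 arrays. These groups share the array, so the marks are not separate.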

How the results depend on the processing

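The 14 alternatives covered normalization, level filter, the replicate block and leaving out each pair. The median difference over all members stayed positive, from 0.13 to 0.27 when a pair was left out and from 0.07 to 0.22 otherwise. That of the Cajal body RNAs ran from 0.04 to 0.28 over the left-out pairs and was -0.15 with neither the block nor the Irak1-/- array of pair 3. Of 417 values of named members, 1 changed its call: Snord73b without pair 3, at 1.17 (limma adjusted p = 0.0332), which made the called members 0 to 1 over the left-out pairs. The gap of box C/D to box H/ACA ran from -0.062 to 0.062 over the left-out pairs. Over the same pairs the median of the Snhg genes ran from -0.035 to 0.026.

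Members at an unadjusted p under 0.05 and higher numbered 7 with no replicate block, 10 with a random replicate block, 4 with neither the block nor the Irak1-/- array of pair 3, and 15 to 23 over the left-out pairs. The lower ones numbered 1 with no block, 1 with the random block, 1 with the filter at the 60th percentile, 1 with a robust trend fit, 1 with neither the block nor that array, and 0 to 3 over the left-out pairs. Members higher in every remaining pair numbered 24 to 36 and lower 2 to 5, since fewer pairs had to be alike. After quantile normalization 0 were lower in every pair. Pair counts could not be made without the Irak1-/- array of pair 3.

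The sign changed for 12 of 30 named members tested, none of which had passed. With neither block nor that array, the difference was -0.15 for Scarna10, -0.039 for Scarna17, -0.20 for Scarna2, -0.024 for Scarna6, -0.18 for Scarna8, -0.18 for Snora73a, -0.0079 for Snora73b, -0.35 for Snora74a, -0.081 for Snord13 and -0.17 for Snord49b. Scarna8 had -0.0081 after quantile normalization and -0.0013 after median centring. Over the left-out pairs, ranges were -0.076 to 0.30 for Scarna2, -0.16 to 0.18 for Scarna8, -0.018 to 0.11 for Snora31, -0.66 to 0.26 for Snora44, -0.11 to 0.29 for Snora73a and -0.054 to 0.26 for Snord49b. The cause was not tested.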

Other observations

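Probe sets that name a small nucleolar or Cajal body RNA beside another gene were read as a further description. The 30 such probe sets outside the Snord116 group had a median difference of 0.21 on the log2 scale, Irak1-/- minus wt, with 0.13, 0.05, 0.61 and 0.17 in pairs 1 to 4, and 26 of them had a mean above 0. Without pair 3 the median was 0.13. They were read on the same arrays and carry the name of another gene as well, so they are no independent check of the members.

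Snord116 genes belong to an imprinted cluster known mainly from neurons. Their 16 probe sets held the same values, 4.03, 4.25, 6.28 and 6.36 in wt arrays 1 to 4 and 5.83, 6.60, 6.91 and 5.86 in Irak1-/- arrays 1 to 4. The differences were 1.80, 2.35, 0.63 and -0.49, so pair 4 ran against the others. Wt arrays 1 and 2 were low and all other arrays read 5.83 or more.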
